A study of Mus musculus with 4 samples.

Results

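The NRF2 pathway and the enzymes that remove peroxides were examined in the livers of ADAR2 KO mice through 10 genes chosen by name: Nfe2l2, Keap1, Nqo1, Gclc, Gclm, Txnrd1, Srxn1, Ugdh, Cat and Gpx1. All 10 were among the 25655 genes of the count table, and all 10 were among the 12967 genes that passed the filter on low counts. Liver RNA was sequenced in 2 libraries of HFD-WT mice (ADAR2+/+/GluR-B R/R) and 2 libraries of HFD-KO mice (ADAR2-/-/GluR-B R/R). The mice were male, had a mixed B6129S background, came from crosses of heterozygotes, and were given the high-fat diet (HFD) from the age of 5 weeks for 12 weeks. Both genotypes carried the R/R allele of GluR-B, which encodes the edited form of a glutamate receptor subunit and keeps mice without ADAR2 alive. The null allele is in every tissue of the mouse, so a value from the liver is not limited to hepatocytes. For its enrichment analysis of these livers the study gives more mice than libraries in each group, and how mice map to libraries is not given in the sources used here, so a library may hold RNA of several mice. The p-values measure only the spread between these libraries.

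NRF2, the product of Nfe2l2, is the transcription factor that turns on genes against oxidants and electrophiles. In an unstressed cell, KEAP1 binds NRF2 and passes it to a ubiquitin ligase for breakdown. Oxidants and electrophiles modify cysteines of KEAP1, NRF2 then escapes breakdown, and together with small MAF proteins it binds antioxidant response elements in the DNA of its targets. NRF2 is thus controlled largely at the level of its protein, and the mRNA of its targets is the usual readout of its activity. In the liver these targets make glutathione, reduce thioredoxin and quinones, and make the sugar donor with which drugs and bilirubin are conjugated. Catalase and glutathione peroxidase 1 break down hydrogen peroxide, in peroxisomes and mainly in the cytosol and mitochondria.

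Promoter sequences are shown for the genes with the lowest values in HFD-KO relative to HFD-WT livers and for those with a match to the antioxidant response element. Windows of 250 bases before and 50 bases after the start site were taken from RefSeq (GRCm38.p6). They were matched by symbol for 9 of the 10 genes, all but Gclc, with several start sites for Txnrd1. The core element, TGACNNNGC, was searched on both strands. It was found for 5 of these 9 genes, Nfe2l2, Gclm, Ugdh, Txnrd1 and Srxn1, that is in 5 of the 11 windows of the 9 genes, beside 3781 of 27025 genes and 12.4% of 32851 windows in all. A second form of the element, TGANTCAGC, was added after the sequences had been seen. It was found in the window of Srxn1 alone among these genes and in 1.19% of all windows, and the forms can share a place, as they did in 149 windows. Upstream bases only are printed, on the strand of the gene, and capitals mark the matches.
Srxn1, chr2:152105274-152105523, plus strand, bases -250 to -1: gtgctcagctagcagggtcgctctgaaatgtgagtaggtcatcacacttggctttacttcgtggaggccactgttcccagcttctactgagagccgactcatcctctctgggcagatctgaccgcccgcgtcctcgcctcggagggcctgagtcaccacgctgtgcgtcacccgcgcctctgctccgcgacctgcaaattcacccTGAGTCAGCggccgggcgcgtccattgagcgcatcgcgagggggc
Ugdh, chr5:65435843-65436092, minus strand, bases -250 to -1: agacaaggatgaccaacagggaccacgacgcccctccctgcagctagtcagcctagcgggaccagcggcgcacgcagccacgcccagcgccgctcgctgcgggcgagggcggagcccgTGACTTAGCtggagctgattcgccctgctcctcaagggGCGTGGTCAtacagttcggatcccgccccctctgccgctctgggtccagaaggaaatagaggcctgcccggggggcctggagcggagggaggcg
Nqo1, chr8:107403206-107403455, minus strand, bases -250 to -1: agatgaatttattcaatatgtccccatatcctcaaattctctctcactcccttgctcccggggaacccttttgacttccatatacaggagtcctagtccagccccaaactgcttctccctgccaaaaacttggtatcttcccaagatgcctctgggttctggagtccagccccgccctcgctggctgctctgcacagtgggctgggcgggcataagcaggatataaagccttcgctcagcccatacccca
Gclm, chr3:122245397-122245457, plus strand, bases -160 to -100: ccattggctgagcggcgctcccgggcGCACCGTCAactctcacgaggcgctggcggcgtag
Txnrd1, chr10:82859088-82859148, plus strand, bases -118 to -58: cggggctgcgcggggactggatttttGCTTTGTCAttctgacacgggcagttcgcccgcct
Nfe2l2, chr2:75704853-75704913, minus strand, bases -250 to -190: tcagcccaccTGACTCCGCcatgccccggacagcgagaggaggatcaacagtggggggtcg

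In the Srxn1 window the second form lay at bases -45 to -37, and the core element lay after the start site, at bases 29 to 37. Ugdh had core elements at bases -132 to -124 and, on the opposite strand, at bases -94 to -86. The Nqo1 window held neither form, which says only that these letters are not within it. Gclm and Txnrd1 each had a core element on the opposite strand, and that of Nfe2l2 was on the strand of the gene. A match of letters describes the sequence and does not show that NRF2 binds there.

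Total counts ranged from 24480798 to 28691330 per library. Adarb1, the targeted gene, had 15.7 and 19.8 CPM (counts scaled to library size) in HFD-WT livers and 6.23 and 9.55 CPM in HFD-KO livers, without overlap (log2 fold change -1.17, adjusted p = 0.159 by edgeR). Alb, the albumin gene of hepatocytes, was between 52676 and 66104 CPM. CPM used TMM, a factor per library under which most genes are level, and differences were tested with edgeR's quasi-likelihood test. At an adjusted p under 0.05, 10 of 12967 genes, 0.0771%, differed between the genotypes.

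Of the 10 genes, 0 had an adjusted p under 0.05 by edgeR or by DESeq2's Wald test. At an unadjusted p under 0.05, 3 of the 10 were lower in HFD-KO livers, namely Srxn1, Nqo1 and Ugdh, and 0 were higher. Among all genes tested, 613 (4.73%) were lower and 551 (4.25%) were higher at that p, or 894 lower and 346 higher when counts were scaled by library size only. The same 3 genes were lower with that scaling, and DESeq2's Wald test gave 2 of them, Srxn1 and Ugdh. In 5 of the 10 genes, Srxn1, Nqo1, Ugdh, Gclc and Txnrd1, both HFD-KO libraries lay below both HFD-WT libraries, against 20.3% of all genes tested. In 2, Keap1 and Gpx1, both lay above, against 20.5%. The differences were small, with log2 fold changes from -0.34 to 0.13 and a median of -0.04, beside a median of 0.01 for all genes tested.

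**Figure D1:**
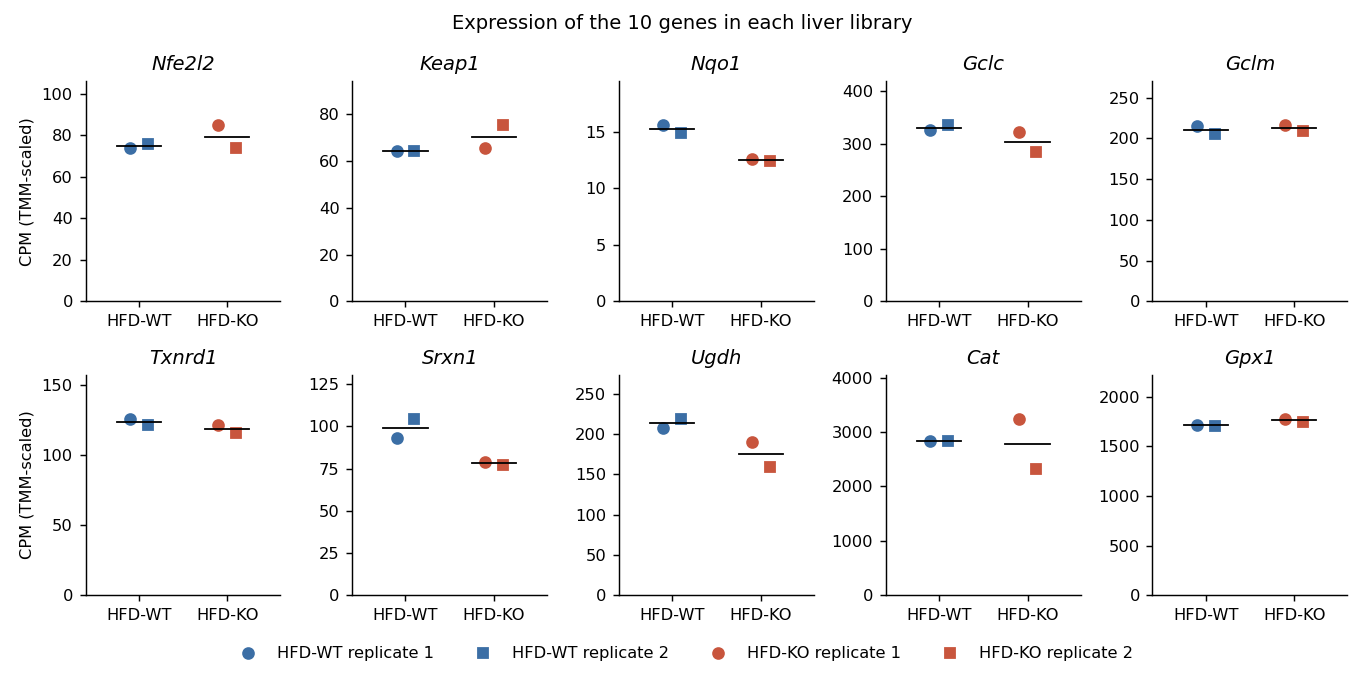
Expression of each gene in each library, in CPM after TMM scaling on axes that start at 0; circles are replicate 1, squares are replicate 2 and the bar is the mean of the group. Srxn1, Nqo1 and Ugdh are lower in both HFD-KO libraries, while the HFD-KO libraries of Cat lie on either side of the HFD-WT libraries, at 3241 and 2317 CPM.

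Nfe2l2 and Keap1, the transcription factor and its inhibitor, showed little difference in mRNA. Nfe2l2 (ENSMUSG00000015839, chromosome 2, 75505857 to 75534985, GRCm39) had 74.0 and 75.8 CPM in HFD-WT livers and 85.0 and 73.9 CPM in HFD-KO livers. The groups overlapped, and only replicate 1 of HFD-KO stood above the rest. The log2 fold change was 0.09 (95% interval -0.13 to 0.30, adjusted p = 0.829 by edgeR), and without that library it was -0.02. Keap1 (chromosome 9, 21141026 to 21150657) had 64.2 and 64.1 CPM in HFD-WT livers and 65.5 and 75.4 CPM in HFD-KO livers. Replicate 2 of HFD-KO was the high library here, and replicate 1 lay just above HFD-WT (log2 fold change 0.13, 95% interval -0.08 to 0.35, adjusted p = 0.711 by edgeR). A different HFD-KO library was thus the high one for each gene. The ratio of Nfe2l2 to Keap1 counts, into which no scaling enters, was 1.15 and 1.18 in HFD-WT livers and 1.30 and 0.98 in HFD-KO livers. With 2 libraries against 2 an exact permutation test of a single value cannot give a p below 0.333, so no test was made of ratios.

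Srxn1 encodes sulfiredoxin, which repairs peroxiredoxins that hydrogen peroxide has over-oxidized, and is among the genes that respond most readily to NRF2. The gene spans 151947436 to 151953296 of chromosome 2. Libraries of HFD-WT livers had 93.1 and 104 CPM and those of HFD-KO livers 78.9 and 77.1 CPM, from 2696, 2873, 2078 and 1842 reads. Both HFD-KO libraries were below both HFD-WT libraries, and the HFD-KO libraries were close to each other. The difference was 21.0% (log2 fold change -0.34, 95% interval -0.55 to -0.13, unadjusted p = 0.0057), the 222nd smallest p of all genes tested, with an adjusted p = 0.332 by edgeR. Relative to Prdx1, a substrate of sulfiredoxin, Srxn1 counts were 0.112 and 0.123 in HFD-WT livers and 0.0920 and 0.0984 in HFD-KO livers. That ratio kept the groups apart without any scaling between libraries. Prdx1 itself had 831 and 852 CPM in HFD-WT livers and 858 and 784 CPM in HFD-KO livers, which overlapped.

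Nqo1 encodes a quinone reductase that is the classic reporter of NRF2 activity. It was the least expressed of the 10 genes, with 451 and 410 reads in HFD-WT livers and 332 and 297 reads in HFD-KO livers. On the CPM scale it had 15.6 and 14.9 in HFD-WT livers and 12.6 and 12.4 in HFD-KO livers, and in each group the libraries differed by less than 1 CPM. Nqo1 (chromosome 8, 108114857 to 108129838) was lower by 17.8% (log2 fold change -0.28, 95% interval -0.51 to -0.06, unadjusted p = 0.021, adjusted p = 0.455 by edgeR). It moved least of these 3 genes when a library was left out, with log2 fold changes from -0.31 to -0.26. DESeq2's Wald test gave it an unadjusted p = 0.111. The ratio of Nqo1 counts to those of Nqo2, a related quinone reductase, was 0.212 and 0.219 in HFD-WT livers and 0.158 and 0.194 in HFD-KO livers.

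Ugdh encodes the dehydrogenase that makes UDP-glucuronate, the sugar donor with which the liver conjugates bilirubin, steroids and drugs. The gene spans 65570564 to 65593292 of chromosome 5, and the 2 other listed genes that overlap it on its strand had at most 3 reads in a library. Expression was 207 and 219 CPM in HFD-WT livers and 191 and 159 CPM in HFD-KO livers. The HFD-KO libraries were both lower, and most of the distance came from replicate 2. The difference was 18.0% (log2 fold change -0.29, 95% interval -0.53 to -0.04, unadjusted p = 0.028, adjusted p = 0.487 by edgeR), and the log2 fold change was -0.16 without replicate 2 of HFD-KO and -0.42 without replicate 1. Ugp2 makes the UDP-glucose that Ugdh uses. Ugdh counts relative to Ugp2 were 0.533 and 0.542 in HFD-WT livers and 0.510 and 0.520 in HFD-KO livers, nearly level but without overlap. Ugp2 itself had 389 and 403 CPM in HFD-WT livers and 374 and 305 CPM in HFD-KO livers (log2 fold change -0.22, adjusted p = 0.630 by edgeR).

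**Figure D2:**
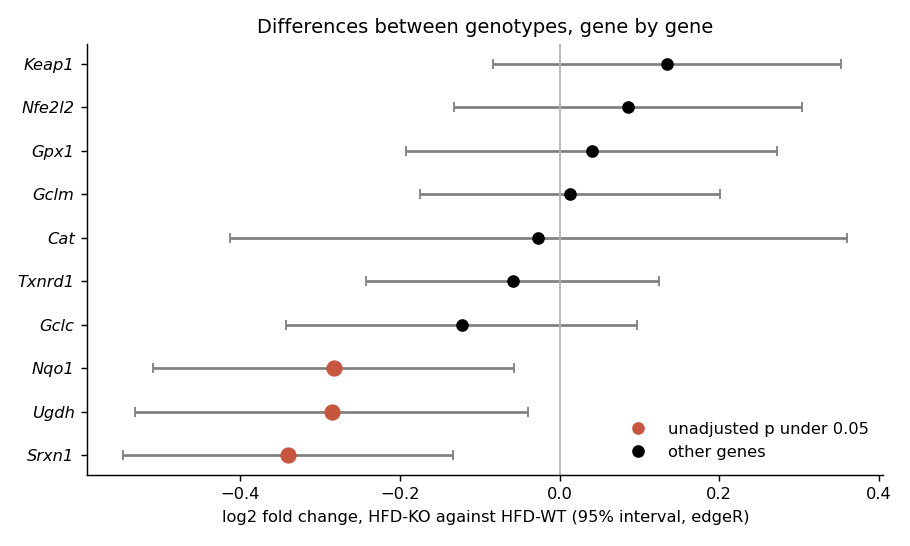
Difference between HFD-KO and HFD-WT livers for each gene as a log2 fold change, with its 95% interval from the edgeR fit; red marks an unadjusted p under 0.05. The intervals of Srxn1, Ugdh and Nqo1 lie below 0, with -0.55 as the lowest and -0.04 as the highest bound, and those of the other 7 genes include 0.

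Gclc and Gclm encode the catalytic and the modifier subunit of glutamate-cysteine ligase, the rate-limiting enzyme of glutathione synthesis. Gclc (chromosome 9, 77661817 to 77701767) had 326 and 336 CPM in HFD-WT livers and 323 and 284 CPM in HFD-KO livers. Replicate 1 of HFD-KO was just below the HFD-WT libraries and replicate 2 was well below them (log2 fold change -0.12, 95% interval -0.34 to 0.10, adjusted p = 0.738 by edgeR). Gclm (chromosome 3, 122039206 to 122064381) had 216 and 206 CPM in HFD-WT livers and 216 and 209 CPM in HFD-KO livers, so the groups overlapped. Its log2 fold change of 0.01 had the 95% interval -0.18 to 0.20 (adjusted p = 0.977 by edgeR), and its sign turned under 3 alternatives. The ratio of Gclc to Gclm counts was 1.51 and 1.63 in HFD-WT livers and 1.49 and 1.36 in HFD-KO livers.

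Txnrd1 encodes the cytosolic selenoenzyme that reduces thioredoxin with NADPH. It had 126 and 121 CPM in HFD-WT livers and 121 and 116 CPM in HFD-KO livers. The second HFD-WT library and the first HFD-KO library were nearly level, at 121.1 and 121.1 CPM, so the groups were barely apart (log2 fold change -0.06, 95% interval -0.24 to 0.12, adjusted p = 0.861 by edgeR). Txnrd1 lies on chromosome 10 from 82669785 to 82733546, 5.42 Mb from the targeted Adarb1, and the overlapping genes Eid3 and Gm47073 had at most 3 reads in a library. Gpx4 and Gstt2, described below, lie on the same chromosome on either side of Adarb1, nearer to it than Txnrd1. Whether sequence linked to the targeted gene plays a part in the values of these genes was not tested. Srxn1 counts relative to Txnrd1 were 0.741 and 0.862 in HFD-WT livers and 0.652 and 0.666 in HFD-KO livers, so this count ratio was lower in both HFD-KO libraries.

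Cat and Gpx1, the enzymes that break down hydrogen peroxide, were expressed far above the other 8 genes and did not pass the test. Cat, the catalase gene (chromosome 2, 103284194 to 103315505), had 2832 and 2830 CPM in HFD-WT livers and 3241 and 2317 CPM in HFD-KO livers. The HFD-WT libraries were almost equal, and the HFD-KO libraries lay above and below them. Its log2 fold change of -0.03 had the widest interval of the 10, from -0.41 to 0.36 (adjusted p = 0.977 by edgeR), and became 0.19 without replicate 2 of HFD-KO and -0.29 without replicate 1. Gpx1 (chromosome 9, 108216102 to 108217542), which encodes the selenoenzyme glutathione peroxidase 1, had 1721 and 1708 CPM in HFD-WT livers and 1778 and 1748 CPM in HFD-KO livers. Both HFD-KO libraries were slightly higher (log2 fold change 0.04, 95% interval -0.19 to 0.27, adjusted p = 0.933 by edgeR), and under scaling by library size only the log2 fold change was -0.01. Cat counts relative to Gpx1 were 1.65 and 1.66 in HFD-WT livers and 1.82 and 1.33 in HFD-KO livers.

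**Figure D3:**
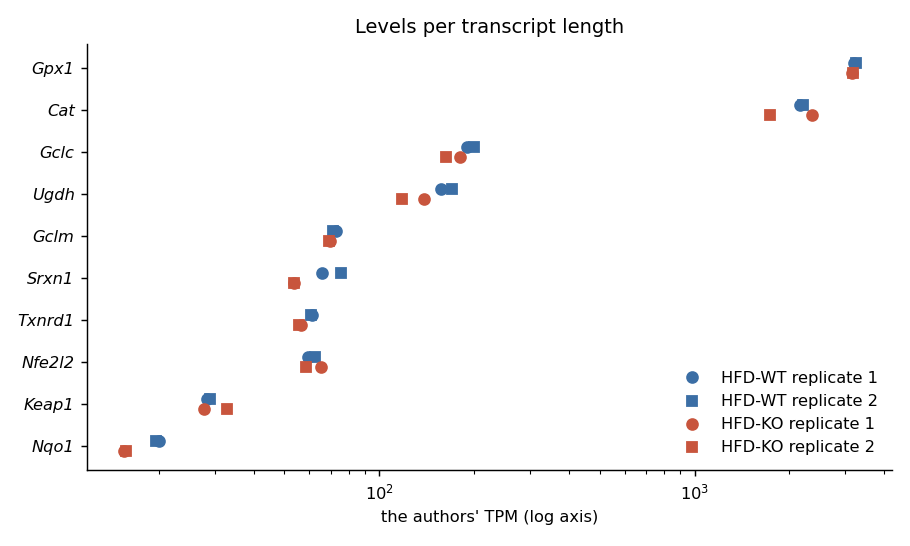
Level of each gene per transcript length, as the authors' TPM on a log axis, ordered by the mean of the HFD-WT libraries; circles are replicate 1 and squares are replicate 2. Gpx1 and Cat lie far above the rest in all 4 libraries, with Cat at 1735 TPM or more and Gclc, the next gene, at 200.1 TPM or less, and Srxn1 takes a lower place in HFD-KO than in HFD-WT.

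Levels were compared between genes on the authors' TPM, which takes transcript length into account. Gpx1 was highest, at 3195 and 3249 TPM in HFD-WT and 3158 and 3190 TPM in HFD-KO livers, followed by Cat at 2157 and 2209 TPM and 2363 and 1735 TPM. Gclc, at 189 and 200.1 TPM in HFD-WT livers, and Ugdh, at 157 and 170 TPM, came next. Gclm (72.7 and 71.0 TPM), Srxn1 (65.9 and 75.8), Txnrd1 (61.4 and 60.7) and Nfe2l2 (59.5 and 62.4) were close together in HFD-WT livers. Among these, Gclm and Srxn1 overlapped, as did Txnrd1 and Nfe2l2. Keap1, at 28.4 and 29.1 TPM, and Nqo1, at 20.0 and 19.6 TPM, were lowest. In HFD-KO livers Srxn1, at 53.5 and 53.7 TPM, stood below Txnrd1, at 56.6 and 55.6 TPM, and Nfe2l2, at 65.4 and 58.4 TPM, while Nqo1 was again lowest, at 15.5 and 15.7 TPM.

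The HFD-KO libraries differed from each other in a direction that most of the 10 genes shared. Replicate 2 was below replicate 1 for 9 of the 10, all but Keap1, while this was so for 50.7% of all genes tested. In HFD-WT replicate 2 was below replicate 1 for 6 of the 10, beside 49.8% of all genes tested. The distance in HFD-KO was largest for Cat (-0.48 on the log2 scale, replicate 2 minus replicate 1) and Ugdh (-0.26), and smallest for Nqo1 (-0.02), Gpx1 (-0.02) and Srxn1 (-0.03). The count of the 10 genes lower at an unadjusted p under 0.05 changed when a library was left out, as did the count over all genes. Without replicate 1 of HFD-KO the log2 fold changes were -0.42 for Ugdh, -0.36 for Srxn1, -0.29 for Cat and -0.22 for Gclc. Keap1 was at 0.23 in that fit. Without replicate 2 of HFD-KO they were -0.16, -0.32, 0.19 and -0.03 in the same order, with Keap1 at 0.03. Srxn1 was at -0.43 without replicate 1 of HFD-WT and at -0.25 without its replicate 2. Without replicate 1 of HFD-KO, Srxn1 (adjusted p = 0.033 by edgeR) and Ugdh (adjusted p = 0.0057) passed the adjusted threshold, in a fit that called 376 genes higher and 329 lower and in which the lone HFD-KO library is assumed to vary as HFD-WT does.

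**Figure D4:**
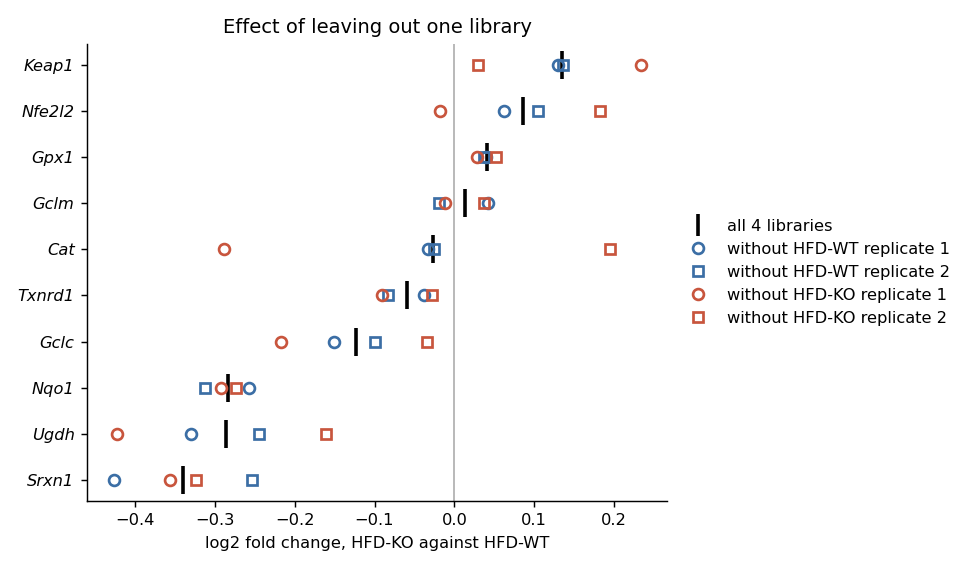
Difference between HFD-KO and HFD-WT livers as a log2 fold change with all 4 libraries (bar) and with each library left out in turn (open symbols). Nqo1 ranges only from -0.31 to -0.26, Srxn1 and Ugdh are below 0 in every case, and Cat runs from -0.29 to 0.19.

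Other genes of the pathway were read from the same fit, by lists of known function. At an unadjusted p under 0.05, 4.73% of all genes tested were lower and 4.25% higher. Of 14 regulators of NRF2 other than the genes above, 0 passed that p in either direction. They included Cul3 and Rbx1 of the ubiquitin ligase, Bach1, which competes for the same DNA elements, and Sqstm1, which draws KEAP1 away. Their log2 fold changes had a median of -0.04, beside 0.01 for all genes tested. The smallest p values were those of Cdkn1a, the p21 gene, with 35.4 and 64.8 CPM in HFD-WT and 23.9 and 43.5 CPM in HFD-KO livers (adjusted p = 0.668 by edgeR), and Trim21, with 6.15 and 5.67 CPM and 6.65 and 6.99 CPM (adjusted p = 0.721). The Cdkn1a libraries overlapped between the groups and those of Trim21 did not.

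Of 21 tested genes among 22 further NRF2 targets, 5 were lower at an unadjusted p under 0.05 and 0 were higher, beside the 4.73% and 4.25% of all genes, and 0 had an adjusted p under 0.05. Their median log2 fold change was -0.14, beside 0.01 for all genes tested. In 10 of the 21 both HFD-KO libraries were below both HFD-WT libraries, against 20.3% of all genes tested. Cbr3, which encodes a carbonyl reductase, differed most, with 3.94 and 5.24 CPM in HFD-WT and 1.48 and 2.43 CPM in HFD-KO livers (log2 fold change -1.23, 95% interval -1.91 to -0.56, adjusted p = 0.270 by edgeR). Abcc4, an efflux pump gene that is also low in these livers, had 3.28 and 4.87 CPM against 1.82 and 2.60 CPM (log2 fold change -0.89, adjusted p = 0.436). Hmox1, the heme oxygenase gene, which macrophages also express, had 35.5 and 32.9 CPM against 27.9 and 29.9 CPM (log2 fold change -0.24, adjusted p = 0.477). Slc48a1, a heme transporter gene, and Htatip2 had log2 fold changes of -0.23 and -0.27. Slc7a11, which encodes the cystine importer, had at most 0.335 CPM and was not tested. Without replicate 1 of HFD-KO 10 of these targets were lower and 3 higher at that p, in a fit with 1078 lower and 1095 higher genes overall. Without replicate 1 of HFD-WT 3 were lower (521 overall), and without its replicate 2 it was 2 (207 overall).

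Of 22 tested glutathione S-transferase genes, the detoxifying enzymes that use the glutathione made by Gclc and Gclm, 7 were lower at an unadjusted p under 0.05 and 1, Gstt2, was higher, beside 4.73% and 4.25% of all genes tested. Gsta1 and Gstm3 also passed the adjusted threshold, with an adjusted p = 0.029 and 0.024 by edgeR. Their log2 fold changes were -1.77 and -1.35. Gsta4 (-0.60), Mgst3 (-0.66), Gstm1 (-0.60) and Gstm2 (-0.44) did not pass it. Without replicate 1 of HFD-KO, 11 of the 22 were lower at the unadjusted p, in the fit with 1078 lower genes overall. How reads shared between similar genes of the alpha and mu classes were counted is not given in the sources used here.

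NADPH feeds the thioredoxin and glutathione reductases. Genes were listed for enzymes that make it or belong to the pentose phosphate pathway. Of 8 tested, 4 were lower at an unadjusted p under 0.05 and 0 were higher, beside 4.73% and 4.25% of all genes tested. The 4 were Pgd and G6pdx of the oxidative pentose phosphate pathway, Tkt of its other branch and the mitochondrial isocitrate dehydrogenase gene Idh2. Pgd had 45.4 and 54.4 CPM in HFD-WT and 41.4 and 37.1 CPM in HFD-KO livers (log2 fold change -0.34, adjusted p = 0.438 by edgeR), and G6pdx had 4.70 and 5.56 CPM against 3.80 and 3.39 CPM (log2 fold change -0.51, adjusted p = 0.496). Idh2 and Tkt had log2 fold changes of -0.30 and -0.25. Of the 8 tested genes, 5 had both HFD-KO libraries below both HFD-WT libraries, against 20.3% of all genes tested. They included the 4 lower at the unadjusted p, for which such a separation is likely from the choice alone. The count was 2 without replicate 1 of HFD-WT (521 genes lower overall), 0 without its replicate 2 (207 overall), and 1 without replicate 2 of HFD-KO (752 overall). Without replicate 1 of HFD-KO it was 5 (1078 overall).

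In the glutathione cycle, 0 of 16 tested genes were lower and 2 were higher at an unadjusted p under 0.05, beside 4.73% and 4.25% of all genes tested. Cbs, which directs homocysteine toward cysteine, had 342 and 298 CPM in HFD-WT and 355 and 449 CPM in HFD-KO livers (log2 fold change 0.33, adjusted p = 0.516 by edgeR). Ggact had 61.5 and 59.9 CPM against 73.7 and 67.0 CPM (log2 fold change 0.21, adjusted p = 0.520). Neither kept that p when counts were scaled by library size only. The count fell without either library of HFD-WT, as did the count of higher genes over all genes tested. Gsr, the glutathione reductase gene, had 64.0 and 63.5 CPM against 64.1 and 61.6 CPM, which overlapped.

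Of 14 thioredoxin and peroxiredoxin genes other than Txnrd1 and Srxn1, 0 had an unadjusted p under 0.05 by edgeR. Among all genes tested, 4.73% were lower and 4.25% higher at that p. DESeq2's Wald test gave 1 of the 14, in a fit with 372 lower and 304 higher genes. Txnip, which encodes the thioredoxin-interacting protein, came nearest, with 120 and 142 CPM in HFD-WT and 90.6 and 118 CPM in HFD-KO livers (log2 fold change -0.33, adjusted p = 0.556 by edgeR). Prdx3, the mitochondrial peroxiredoxin gene, had a log2 fold change of -0.21 (adjusted p = 0.588). Among 19 genes for superoxide dismutases, other glutathione peroxidases and related enzymes, only Gpx4 had an unadjusted p under 0.05. It was lower, so that 5.26% of the 19 were lower, near the 4.73% of all genes tested. Gpx4, which removes lipid peroxides from membranes, had 526 and 551 CPM in HFD-WT and 459 and 387 CPM in HFD-KO livers (log2 fold change -0.35, 95% interval -0.60 to -0.10, adjusted p = 0.414 by edgeR). Both of its HFD-KO libraries were the lower ones, whereas those of Gpx1 were not. With a library left out, the number of the 19 lower at the unadjusted p varied. The number over all genes tested varied too, not always in the same direction. Without replicate 2 of HFD-KO some of the 19 were also higher.

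**Figure D5:**
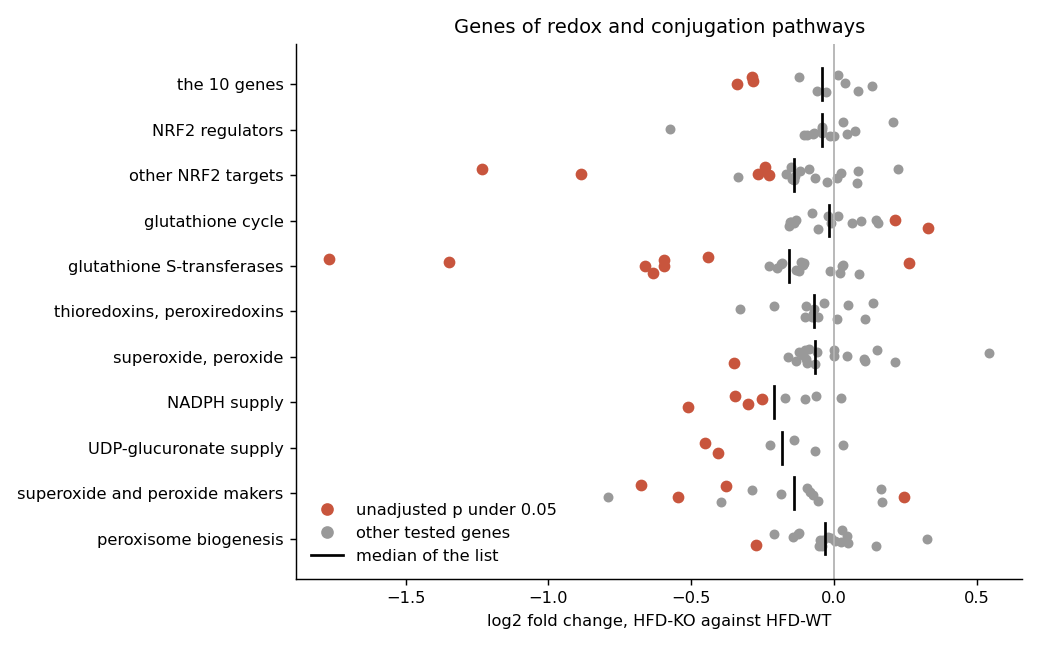
Log2 fold change of every tested gene in lists of redox and conjugation genes, with the 10 genes in the top row; red marks an unadjusted p under 0.05 and the black bar is the median of a list. Medians run from -0.21 for NADPH supply to -0.02 for the glutathione cycle, and the lowest values are those of the glutathione S-transferases Gsta1 and Gstm3.

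Markers of other liver cells had 0 genes at an adjusted p under 0.05 by edgeR, and are described at an unadjusted p under 0.05, at which 4.73% of all genes were lower and 4.25% higher. Of 12 macrophage and Kupffer cell markers, 9 were lower, the smallest adjusted p being 0.112 by edgeR, and their summed level was 491 and 615 CPM in HFD-WT and 401 and 381 CPM in HFD-KO livers. Of 7 stellate cell markers, 4 were lower, with sums of 348 and 387 CPM against 304 and 224 CPM. Endothelial markers had sums of 219 and 241 CPM against 212 and 233 CPM, with 1 of 7 lower. Cholangiocyte markers summed to 71.5 and 90.5 CPM in HFD-WT and to 59.4 CPM or less in HFD-KO livers, with 1 of 5 lower. Of 9 pericentral hepatocyte markers, the zone in which many conjugating enzymes are made, 0 were lower and 1 was higher, and of 7 periportal markers 2 were lower. Of 7 B and plasma cell markers 3 were higher, and they summed to 124 CPM in replicate 1 of HFD-KO and to between 15.2 and 18.5 CPM in the other libraries. Of 6 red blood cell genes 3 were higher, with sums of 758 and 601 CPM in HFD-WT and 811 and 1147 CPM in HFD-KO livers. In 4 of the 6 both HFD-KO libraries lay above both HFD-WT libraries, against 20.5% of all genes tested. The 8 hepatocyte markers summed to 90717 CPM in replicate 2 of HFD-KO and to between 76263 and 77612 CPM in the others, with 0 lower and 1 higher. In such bulk samples fewer cells of a type and less RNA per cell cannot be told apart, and the part of these markers in the results above was not tested.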

How the data were processed

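Liver RNA of 2 HFD-WT and 2 HFD-KO libraries was analysed, grouped by the sample labels. The authors prepared directional libraries, sequenced paired ends, aligned them with MGI's RNA-seq tool, and quantified genes of the GENCODE annotation with Partek Genomics Suite. The submitters' processing notes name mm10 and GRCm39. Of 25600 gene starts in the deposited data, 567 equal those of GRCm38, so gene positions here are the table's, and promoters are on GRCm38.p6. Tool versions and the use of strand are not given in the sources used here. The deposited counts, whole reads per gene with no scaling, were the values tested. The authors' TPM values were used to compare levels between genes. The deposited RPKM values and the deposited CPM values, a score on an adjusted library size, were not used. CPM given here was computed from the counts.

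Genes were kept by filterByExpr, scaled by TMM and tested two-sided in edgeR 4.0.16 (R 4.3.3), with Benjamini-Hochberg adjustment over 12967 genes. The standard error is the log2 fold change over the root of F, and 95% intervals use the fit's total degrees of freedom. Alternatives were DESeq2 1.42.0, its size factors, the library size alone, no filter, each library left out and a replicate block. The procedure was tested on simulated data, in which the changes were larger than those of the 10 genes. That test does not show how well differences as small as theirs are found. A floor of 3 reads is 0.104 to 0.126 CPM and covers counting error only. Replicates differed by more than counting error (chi-square per degree of freedom 10.8 for HFD-WT and 42.9 for HFD-KO). The 10 genes and the lists were chosen with earlier results of these data known. Genes named are the 10 genes, Adarb1 and, per list, those with an unadjusted p under 0.05 (at most 6), or otherwise the 2 with the smallest p. Genes named outside this rule, such as Prdx1, Nqo2, Slc7a11, Gsr and Gstt2, were chosen after values were seen. Nnt and Pmp34 were listed but not analysed here, and 1 other listed gene is not reported here. Plots used matplotlib 3.10.9.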

Additional observations from a re-analysis of the deposited data

How the results depend on the processing

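Over the 9 alternatives, 82 of 90 log2 fold changes of the 10 genes kept their direction and side of the adjusted threshold, and 2 more, Srxn1 and Ugdh without replicate 1 of HFD-KO, passed it. The sign turned for Gclm (-0.0327 with the library size alone, and from -0.0193 to 0.0421 with a library left out), Gpx1 (-0.0058 with the library size alone), Nfe2l2 (from -0.0185 to 0.1821 with a library left out) and Cat (from -0.29 to 0.19). The number of the 10 genes lower at an unadjusted p under 0.05 ranged from 0 to 5 with a library left out, the number higher from 0 to 1, and the number at an adjusted p under 0.05 from 0 to 2. At an adjusted p under 0.05 the genes higher and lower overall numbered 81 and 81 without a filter on low counts and 56 and 61 by DESeq2's Wald test, and 4 were higher with the library size alone. With a library left out they ranged from 0 to 376 and from 0 to 329. At an unadjusted p under 0.05, 346 were higher with the library size alone, DESeq2's Wald test gave 304 higher and 372 lower genes, and 255 to 1095 were higher and 207 to 1078 lower with a library left out. The cause of these shifts was not tested. With the replicate block, 12 genes were higher and 8 lower at an adjusted p under 0.05, and the 10 genes kept 3 lower at an unadjusted p. The replicate numbers are not described as pairs, and the deviations of same-numbered libraries from their group means had a correlation of -0.08 across genes. With the second form of the antioxidant response element, 1 of the 9 genes had a match in place of 5. With 2 libraries a group, differences as small as these lie near or below what the spread between libraries allows to be called.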

Other observations

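Of 14 tested genes for enzymes that make superoxide or hydrogen peroxide, 11 had lower and 3 had higher values in HFD-KO livers. Lower values were found in 48.4% of all genes tested. The median log2 fold change of the 14 was -0.14, beside 0.01 for all genes tested. The genes named here did not pass the adjusted threshold. Xdh, which encodes xanthine dehydrogenase, had 186 and 187 CPM in HFD-WT and 147 and 141 CPM in HFD-KO livers (log2 fold change -0.38, 95% interval -0.56 to -0.19, adjusted p = 0.233 by edgeR). Cybb, which encodes a subunit of the phagocyte NADPH oxidase and is expressed in macrophages, had a log2 fold change of -0.55 (adjusted p = 0.369 by edgeR), beside the lower macrophage markers. Nox4, an NADPH oxidase gene of other cells, had 29.3 and 30.6 CPM in HFD-WT and 35.9 and 35.1 CPM in HFD-KO livers (log2 fold change 0.25, 95% interval 0.06 to 0.43, adjusted p = 0.438).

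Peroxisome genes, for the compartment that holds catalase, showed little difference. Of 18 tested genes of peroxisome biogenesis and membrane, 1 was lower at an unadjusted p under 0.05, beside 4.73% of all genes tested, and the median log2 fold change was -0.03. The number lower rose without replicate 1 of HFD-KO and fell without replicate 2 of HFD-WT, as did the number over all genes tested. Pex11a, which takes part in peroxisome division, had 239 and 276 CPM in HFD-WT and 228 and 198 CPM in HFD-KO livers (log2 fold change -0.27, adjusted p = 0.518 by edgeR). Around Ugdh, 2 of 6 genes of glucuronate metabolism were lower at that p, beside 4.73% of all genes tested. That number fell without replicate 2 of HFD-WT, as did the number over all genes tested. Gusb, which encodes the glucuronidase that removes glucuronate from conjugates, had 37.1 and 40.4 CPM against 32.2 and 26.3 CPM (log2 fold change -0.41, adjusted p = 0.369 by edgeR), and Pgm2 had 5.70 and 7.23 CPM against 4.48 and 4.98 CPM (log2 fold change -0.45, adjusted p = 0.532).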
